A study of Mus musculus with 22 samples.

Results

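Interferon-induced genes and genes of class I antigen presentation were followed across the RNA libraries of mouse tumour cell lines sorted into EPCAM+ and EPCAM- cells. Members were taken by name, 34 of the 49671 genes in the deposited table, and fall into 2 groups that are described apart: 23 interferon-induced genes and 11 genes of class I presentation. The lines came from a primary tumour with Lgr5CreER, p53fl/fl and Rosa26-YFP+/+, alleles that all groups share, and 4 of the 5 lines were made from it with CRISPR/Cas9 as knockouts of Pitx1, Klf5, Nfatc1 or Creb3l1. Lgr5CreER drives the recombinase in cells that express Lgr5, and Rosa26-YFP marks cells in which it has acted. Living single cells positive for mCherry and YFP were sorted with an EPCAM antibody, and each group holds 2 libraries. The 11 groups are control EPCAM+ cells at day 0, and EPCAM+ and EPCAM- cells at day 8 of the control, Pitx1, Klf5, Nfatc1 and Creb3l1 knockout lines. What happened at day 0 is not given in the labels, nor whether a knockout line is 1 clone or whether the 2 libraries of a group are separate cultures, so a p-value measures only the spread between these libraries.

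In the textbook pathway, secreted interferons bind receptors that activate Jak kinases, and a complex holding Stat2 and Irf9 then binds the interferon-stimulated response element (ISRE) ahead of target genes. Cells also read viral RNA directly through the sensors encoded by Ddx58 and Ifih1. For class I presentation, the interferon-inducible proteasome subunits Psmb8, Psmb9 and Psmb10 cut proteins into peptides, Tap1 and Tap2 pump these into the endoplasmic reticulum with the help of Tapbp, and Erap1 trims them. The peptides are shown at the surface by the heavy chains H2-K1 and H2-D1 paired with B2m, and Nlrc5 is a transactivator of the class I genes.

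A deposited value is a read count scaled to a common total per library (median 20010532 units), and 1 read was worth 2.02 to 3.30 units, which gives 6054929 to 9882700 reads in genes per library (median 7804837). A value of 3 to 5 in a single library is therefore 1 or 2 reads, and 3 reads per library, the floor used below for a count of 0, stood at 6.07 to 9.91 units. Pitx1 mRNA was at 1205 to 1627 in its knockout and 4358 to 6438 in the control line at day 8, and Nfatc1 at 182 to 249 against 488 to 981. Klf5 mRNA was at 1961 to 2247 against 1733 to 2941, and Creb3l1 at 0 to 6 against 0 to 137, so these levels do not check those edits. Of 13 leukocyte markers only Csf1r (91 to 277) and Cd68 (26 to 97) were above a few reads throughout; Cd3e and Ncr1 were at 0 in all 22 libraries and Ptprc at 0 to 9. Summed leukocyte markers were 170 to 368 in EPCAM+ and 141 to 280 in EPCAM- libraries at day 8. Epcam fell in EPCAM- cells over the 5 lines (mean 402 against 5772, log2 -4.07, adjusted p 3.85e-07), as sorted.

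Of the 11 class I members, B2m, H2-K1, H2-D1 and Tapbp were among the most abundant transcripts of these cells, and Psmb8, Tap1, Psmb9 and Nlrc5 lay below the median gene. Divided by exon length, B2m had a mean of 12183 units per kb over the 22 libraries, higher than 99.8% of the 30989 genes above 0, followed by H2-K1 (1216 units per kb) and H2-D1 (1000), with Tapbp at 791. Psmb10 stood at 238 and Erap1 at 181 units per kb. The peptide pump subunits were unequal, with Tap2 at 26.8 and Tap1 at 4.59 units per kb, and the other inducible proteasome subunits were low (Psmb8 7.81, Psmb9 3.63), against a median of 13.3 over those genes. Nlrc5 was the lowest class I member at 1.24 units per kb.

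Among interferon-induced genes the highest levels per kb were Bst2, which tethers budding virus (361), the transcription factor Irf1 (292), Ifi35 (163) and the RNA sensor Ddx58 (114). Xaf1 (52.9), Ifit2, a translation inhibitor of the Ifit family (33.1), the ADP-ribosyltransferase Parp14 (31.3), Stat2 (24.8), Irf9 (19.4), Oasl2 of the oligoadenylate synthetase-like family (15.7) and Irf7 (11.7) were intermediate. The ubiquitin-like modifier Isg15 (10.9), Ifit1 (6.61), the Isg15 protease Usp18 (5.73), Rtp4 (5.16), the RNA sensor Ifih1 (4.34) and the antiviral enzyme Rsad2 (2.20) were low. The antiviral GTPase gene Mx1 and its relative Mx2, annotated as a polymorphic pseudogene, were at or near 0. So were the oligoadenylate synthetase family genes Oas1a and Oasl1, Ifit3 and the nucleotide kinase Cmpk2. Mx1 was 0 in 20 of 22 libraries and did not exceed 4, and Cmpk2 did not exceed 14. These 6 genes did not reach a value of 10 in 2 libraries and were not tested, so 17 of 23 interferon-induced and 11 of 11 class I members were tested among 19569 genes. Ifit3 shares 51.2% of its 50-base stretches with Ifit3b and Oas1a 57.6% with Oas1g and Oas1b, so the levels of both are uncertain. H2-K1 (9.63%) and H2-D1 (12.8%) share stretches with each other and with other H2 genes, which makes their levels less certain.

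**Figure D1:**
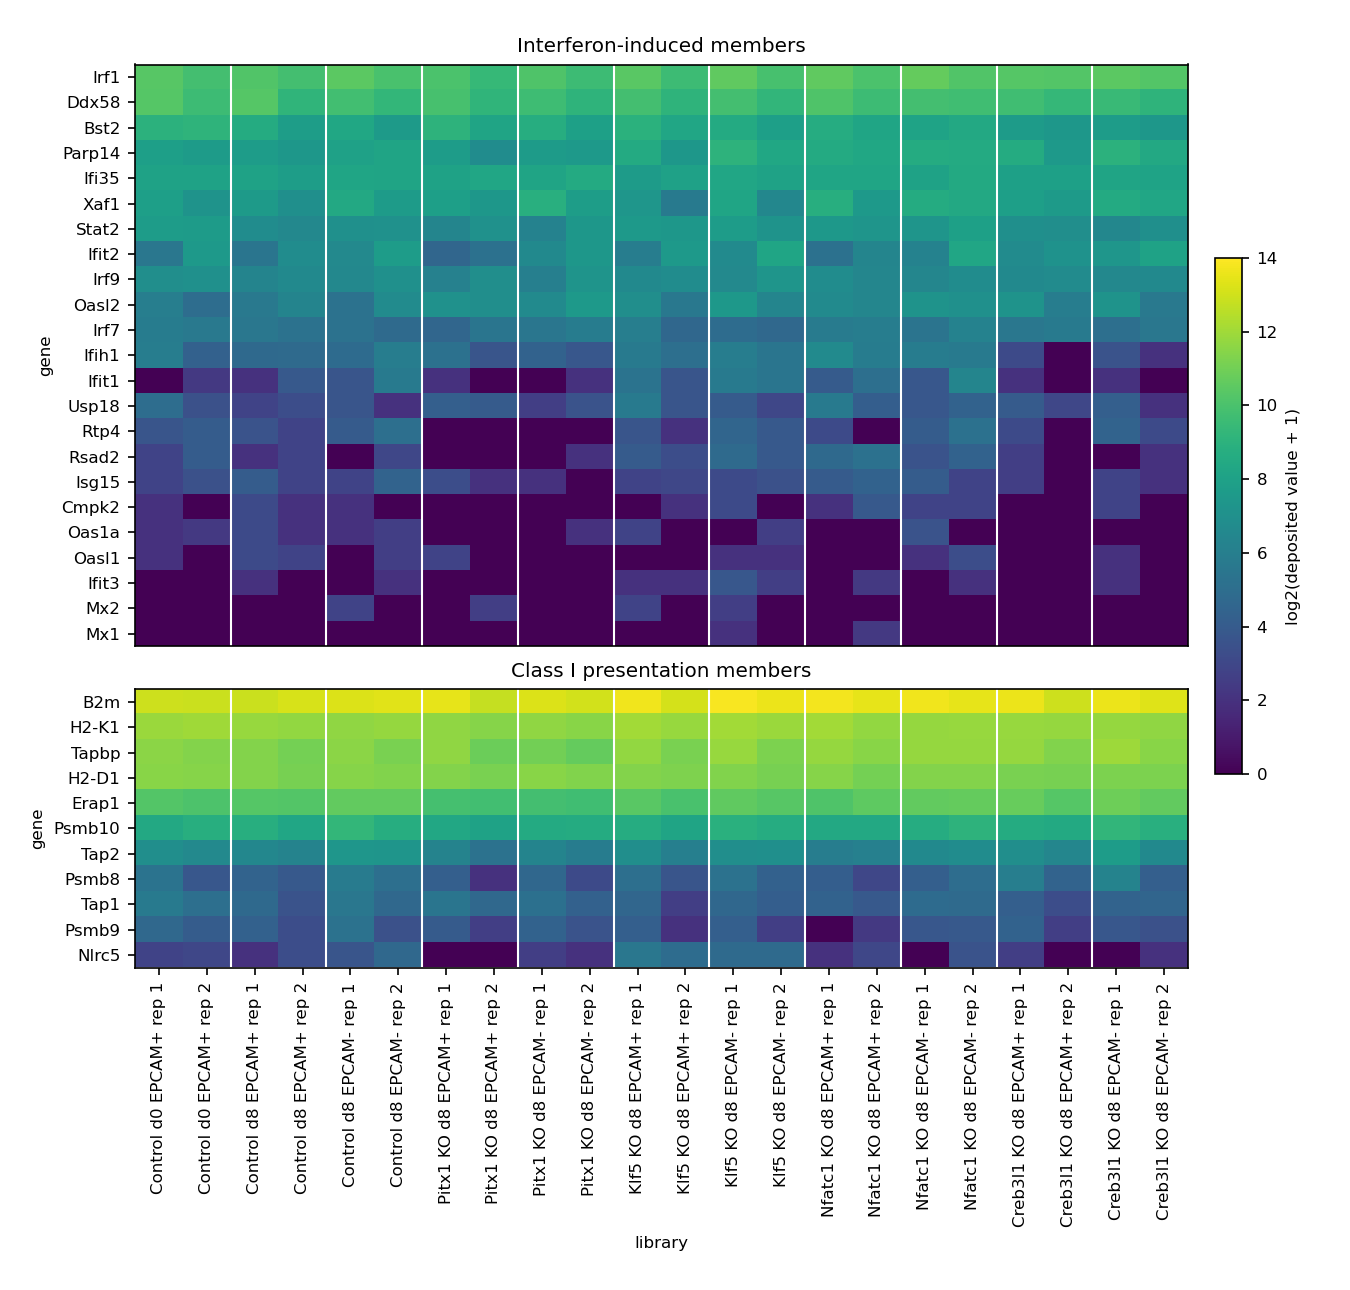
Members (rows) in all 22 libraries (columns, 2 per group between white lines), as log2(deposited value + 1), not divided by gene length. B2m, H2-K1, Tapbp and H2-D1 form a bright block in all libraries, while Mx1, Mx2, Oas1a, Oasl1, Ifit3 and Cmpk2 are dark or nearly so.

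Upstream of these targets, 12 interferon ligand genes were at or near 0. Ifng, Ifna1, Ifna2, Ifna4, Ifna5, Ifne, Ifnl2 and Ifnl3 were at 0 in all 22 libraries, and Ifnb1 was 3 in a single control EPCAM- library. Of the 13 receptor and kinase genes and the 13 sensor and adaptor genes all were tested, and the receptor chains for type I interferon were present throughout (Ifnar1 970 to 1795, Ifnar2 239 to 697).

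Promoter sequences were available from RefSeq on GRCm38.p6 for 27 of the 34 members, and 4 are printed, each as the 250 bases ahead of the start, because these genes carried called differences between lines (below). Capitals mark matches to the ISRE-type motif GAAANNGAAA on either strand. Ifit1 is at chr19:34640639-34640888 on the plus strand, Rsad2 at chr12:26456453-26456702 on the minus strand, Ifih1 at chr2:62646256-62646505 on the minus strand and Erap1 at chr13:74639603-74639852 on the plus strand.
Ifit1: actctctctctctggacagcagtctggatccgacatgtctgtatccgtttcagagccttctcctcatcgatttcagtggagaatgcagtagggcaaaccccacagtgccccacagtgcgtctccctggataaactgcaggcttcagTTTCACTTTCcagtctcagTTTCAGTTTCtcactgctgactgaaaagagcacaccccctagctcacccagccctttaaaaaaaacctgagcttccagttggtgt
Rsad2: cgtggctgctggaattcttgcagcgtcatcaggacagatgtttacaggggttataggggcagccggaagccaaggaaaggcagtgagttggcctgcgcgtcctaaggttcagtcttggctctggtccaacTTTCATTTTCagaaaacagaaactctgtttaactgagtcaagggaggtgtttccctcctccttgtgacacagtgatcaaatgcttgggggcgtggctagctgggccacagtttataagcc
Ifih1: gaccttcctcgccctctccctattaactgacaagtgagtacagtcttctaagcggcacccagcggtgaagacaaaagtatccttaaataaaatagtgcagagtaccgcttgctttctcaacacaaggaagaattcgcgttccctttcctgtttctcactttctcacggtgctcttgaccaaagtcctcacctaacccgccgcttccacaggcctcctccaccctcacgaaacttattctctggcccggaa
Erap1: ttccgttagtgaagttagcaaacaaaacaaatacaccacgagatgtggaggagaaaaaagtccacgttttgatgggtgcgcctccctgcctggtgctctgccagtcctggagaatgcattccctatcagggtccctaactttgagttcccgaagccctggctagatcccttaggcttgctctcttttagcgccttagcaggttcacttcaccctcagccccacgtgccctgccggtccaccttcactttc
Ifit1 holds the motif 2 times and Rsad2 1 time, and it is not in these windows of Ifih1 and Erap1. In all, 7 of 18 interferon-induced members (38.9%) held it, Ifit1, Ifit3, Isg15, Oas1a, Rsad2, Stat2 and Bst2, as did 1 of 9 class I members, B2m, against 2.97% of 32807 promoters of the same length. The palindromic motif TTCNNNGAA, the GAS-type site of interferon gamma signalling, was held by 4 of 18 interferon-induced members (Bst2, Ifit2, Irf1 and Oas1a) and 1 of 9 class I members (Psmb8), against 7.02% of promoters. A member counted if any of its windows held the motif, while the background was counted per window, so the shares are not in the same unit. Ifit2, Irf1, Irf9 and H2-K1 had 2 windows each. In Bst2 the matches to the 2 motifs overlap. Neither match shows that a factor binds there. Mx1, Mx2, Usp18, Rtp4, Parp14, Tap2 and Nlrc5 were not searched.

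The comparison of the fractions asked how members differ between tumour cells that kept EPCAM and those that lost it. In the fit without a term for replicate number, Psmb10, the proteasome subunit, was the 1 class I member that rose in EPCAM- cells over the 5 lines at day 8. No interferon-induced member was called in that fit. With replicate number as a block, 4 interferon-induced and 2 class I members were called, beside 10.1% of all genes (below). Psmb10 was 265 to 444 (median 346) in the 10 EPCAM+ libraries and 374 to 613 (median 437) in the 10 EPCAM- libraries. The ranges overlap, but EPCAM- was the higher in 10 of 10 pairs of libraries with the same line and replicate number. Its mean was 1.33-fold higher (465 against 350, log2 0.40, standard error 0.11, adjusted p 0.0457). Across all genes 6.22% were called in this comparison. The call is narrow, since it was lost with median-of-ratios scaling (adjusted p 0.0760), without the filter on low values (0.0691) and without any 1 of 14 libraries (highest adjusted p 0.114). The 8 whose removal kept it were both day 0 libraries, control EPCAM+ replicate 1 and EPCAM- replicate 2, Pitx1 and Klf5 knockout EPCAM+ replicate 1, Nfatc1 knockout EPCAM- replicate 1 and Creb3l1 knockout EPCAM- replicate 2. In bulk RNA, a smaller share of cells with a transcript and less of it per cell cannot be told apart.

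Ifit2 and Rtp4 had the largest differences between fractions among interferon-induced members and were not called. Ifit2 was 24 to 184 (median 71.5) in EPCAM+ and 72 to 315 (median 168.5) in EPCAM- libraries, higher in EPCAM- in 10 of 10 pairs (log2 1.22, standard error 0.38, adjusted p 0.0702). In the fit with replicate number as a block, its adjusted p was 0.000114. Rtp4, a chaperone-like interferon target, was 0 to 12 (median 4.5) in EPCAM+ and 0 to 36 (median 15.5) in EPCAM- libraries, higher in 8 of 10 pairs and 0 on both sides in the Pitx1 knockout pairs (log2 1.61, standard error 0.49, adjusted p 0.0631, blocked 0.0337). The block also put Xaf1 (log2 0.65, adjusted p 0.190, blocked 0.00873) and Parp14 (log2 0.47, 0.145, blocked 0.0247) past the threshold, and raised the share of all genes called to 10.1%. Medians over the tested members were 0.18 for the interferon-induced group, with 11 of 17 positive, against 0.06 over all genes, where 60.8% were positive.

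In the class I group 10 of 11 members were higher in EPCAM- cells, with a median of 0.40, again against 0.06 over all genes. Tap2 was next after Psmb10, at 38 to 121 (median 75.5) against 58 to 211 (median 114.5) (log2 0.60, standard error 0.18, adjusted p 0.0558, blocked 0.0151). Psmb9 and Psmb8 had the largest differences in this group but varied more. Psmb9 was 0 to 20 (median 7) in EPCAM+ and 5 to 38 (median 13) in EPCAM- libraries (log2 0.88, standard error 0.44, adjusted p 0.291). Psmb8 was 3 to 62 (median 17.5) and 8 to 75 (median 28) (log2 0.71, standard error 0.40, adjusted p 0.358). The abundant members differed least, H2-K1 by -0.03, Tapbp by 0.01, H2-D1 by 0.09 and B2m by 0.17 on the log2 scale, with standard errors of 0.07 to 0.13.

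Within single lines no member of either group was called between the fractions, and the background was low: 0.644% of genes in the control line, 0.317% in the Pitx1, 0.286% in the Klf5, 0.429% in the Nfatc1 and 0.291% in the Creb3l1 knockout. At an unadjusted p below 0.05 there were 2 of 85 tests for interferon-induced and 2 of 55 for class I members, and 6.17% of tests over all genes. The block called Ifit2 in the Pitx1 knockout (24 and 36 in EPCAM+, 98 and 172 in EPCAM-, log2 2.11, adjusted p 0.674, blocked 0.0108), with 0.705% of all genes. The fraction difference of a knockout line was also set against that of the control line, and 0 members were called in any of the 4 knockouts. The background there was 0% of genes in each, and 0 of 112 tests on members reached an unadjusted p below 0.05, against 1.57% over all genes.

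**Figure D2:**
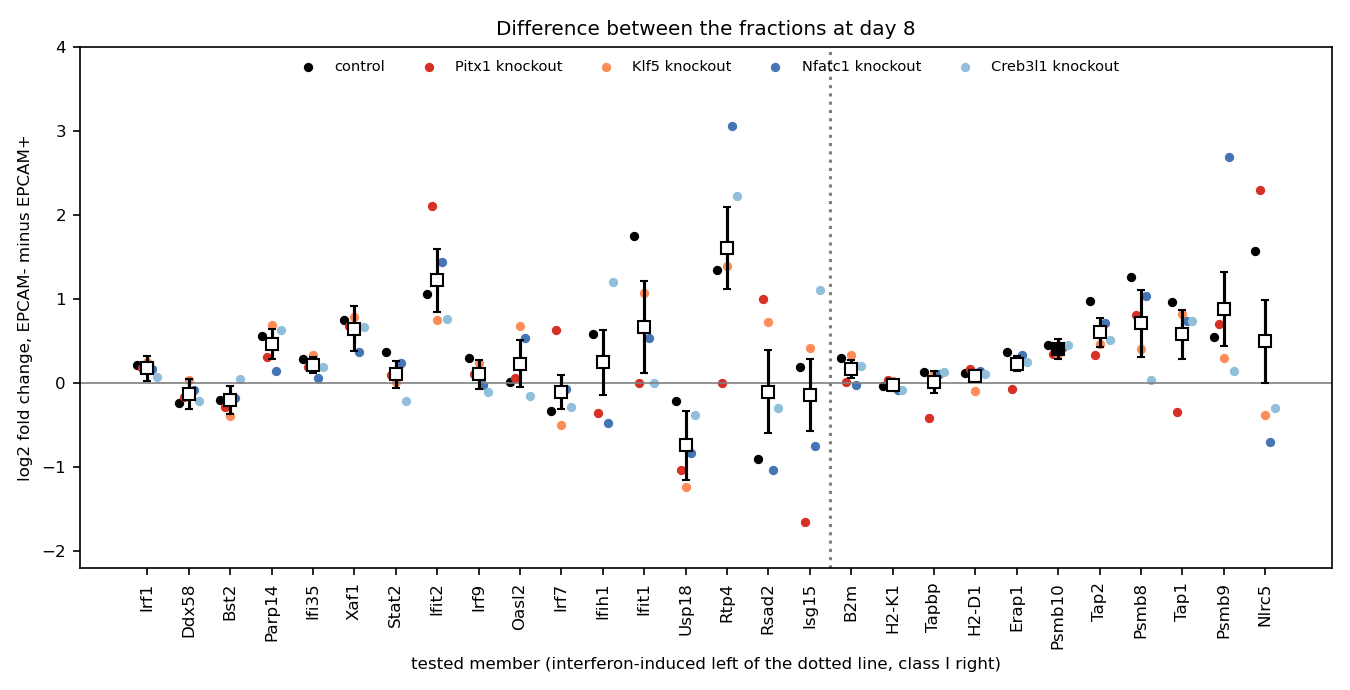
Log2 fold change between the fractions for the 28 tested members. Squares with standard error bars are the mean of 5 lines (filled where called), and small points are single lines. Psmb10 has the only filled square (0.40), Ifit2 is above 0 in each line, and the 4 abundant class I genes sit at 0.17 or below.

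Among the wider pathway lists, 4 of 29 tested further interferon targets rose in EPCAM- cells and 0 fell, with 25 of 29 positive and a median of 0.44, beside 6.22% called, 60.8% positive and a median of 0.06 over all genes. They were the guanylate-binding proteins Gbp3 (mean 37.4 against 11.5, log2 1.88, adjusted p 0.00118) and Gbp2 (172 against 91.3, log2 0.93, adjusted p 0.0252), with Herc6 (log2 0.64, adjusted p 0.0200) and Sp100 (log2 2.12, adjusted p 0.0239). Sp100 was low (mean 12.3 against 1.8), with 6 reads over the 10 EPCAM+ libraries, so the size of its difference is uncertain. In the list of sensors and adaptors 2 of 13 fell and 1 rose. Tlr3, the endosomal sensor of double-stranded RNA, fell (291 against 1038, log2 -1.79, adjusted p 1.71e-07). The kinase gene Ikbke fell (log2 -0.56, adjusted p 0.0253), and Tmem173, the adaptor of cytosolic DNA sensing, rose (143 against 71.4, log2 1.18, adjusted p 0.0381). Of 13 receptor and kinase genes, Ifnlr1, the chain specific to type III interferon, fell (79.6 against 200, log2 -1.46, adjusted p 0.000595), and Ifnar2 (log2 0.39, adjusted p 0.0181) and Jak1 (log2 0.24, adjusted p 0.0178) rose. Of 14 other class I pathway genes, Cd1d1, which presents lipids, rose (log2 0.73, adjusted p 0.0259), and of 7 class II genes 3 were tested and 0 called. Several of these calls were narrow when 1 of the 22 libraries was left out. Tmem173 kept its call in 6 of the 22 fits (highest adjusted p 0.0832), Cd1d1 in 12 (0.0636), Gbp2 in 14 (0.0655), Sp100 in 16 (0.0632), Ikbke in 16 (0.0608) and Herc6 in 21 (0.0539). Gbp3, Tlr3, Ifnlr1, Ifnar2 and Jak1 kept theirs in 22. Summed fibroblast and endothelial markers were 185 to 418 in EPCAM+ and 202 to 647 in EPCAM- libraries, and Pdgfrb rose among them (95.5 against 8.50, log2 3.43, adjusted p 0.00269). Their part in the differences between fractions was not tested.

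The knockouts were compared with the control line over both fractions, 4 libraries against 4, and all 4 comparisons share the same control libraries. The 2 fractions of a line entered as separate libraries, though their replicate differences correlated across genes (0.17 to 0.38). In the Pitx1 knockout 1 of 17 interferon-induced members (Rtp4) and 1 of 11 class I members (Erap1) fell and none rose, where 4.28% of all genes were called. Erap1, the peptide-trimming protease, lies at chr13:74639568-74693201 (GRCm38, plus strand). The RefSeq promoter window printed above lies inside this interval and holds no ISRE-type match. Bases ahead of the interval were not searched. Erap1 values in Pitx1 knockout cells were 937 and 875 in EPCAM+ and 890 and 832 in EPCAM-. The control values at day 8 were 1266 and 1210 in EPCAM+ and 1602 and 1592 in EPCAM-. The 4 knockout libraries lie below all other libraries of the series, whose lowest value is 998. The mean was 1.60-fold lower (log2 -0.67, standard error 0.14, adjusted p 0.00910), and the call held without any 1 library (highest adjusted p 0.0399).

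Within the fractions Erap1 fell in EPCAM- cells (log2 -0.89, standard error 0.19, adjusted p 0.0356), where 0.915% of genes were called. In EPCAM+ cells it was not called (log2 -0.45, standard error 0.19, adjusted p 0.418), where 0.409% were. The difference between these effects was itself not called (log2 -0.44, standard error 0.27, adjusted p 1). Leaving out either library of control or Pitx1 knockout EPCAM- cells lost the EPCAM- call (highest adjusted p 0.229), as did a fit on the compared groups alone (0.198). Exons of Erap1 overlap those of Cast on the opposite strand by 834 bases. Cast, looked up after the Erap1 values were seen, was 2564 to 3286 in the Pitx1 knockout and 2954 to 3284 in the control line at day 8 (log2 -0.14).

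Rtp4 was at 0 in all 4 Pitx1 knockout libraries. The control values at day 8 were 11 and 6 in EPCAM+ and 15 and 33 in EPCAM- cells, so the groups do not overlap. Against the 3-read floor of the knockout libraries the control mean of 16.3 was at least 2.09-fold higher (adjusted p 0.00859), a call that held without any 1 library (highest adjusted p 0.0372). Rtp4 shares 11.6% of its 50-base stretches, and 296 bases of exon, with the predicted gene Gm45338, and its values elsewhere reach only 36.

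The largest other differences in the Pitx1 knockout were in low genes and were not called. Ifit1, which binds foreign RNA ends, was 3, 0, 0 and 3 against 3, 14, 12 and 51 in the control line (EPCAM+ replicates 1 and 2, then EPCAM-), with a log2 difference of -2.83, a standard error of 0.87 and an adjusted p of 0.0801 (blocked 0.0495). Nlrc5, the class I transactivator, was 0, 0, 5 and 3 against 3, 9, 12 and 26 (adjusted p 0.117, log2 -2.30, standard error 0.78). Psmb8 was 18, 3, 25 and 8 against 21, 14, 55 and 33 (adjusted p 0.317, log2 -1.29, standard error 0.63). In these 3 genes the ranges of the knockout and control libraries overlap. Tap2 (mean 62.5 against 121, log2 -0.92, adjusted p 0.0795, blocked 0.0215) was called only with the block. The other interferon-induced members ran from -1.71 (Isg15) to 1.05 (Oasl2). Class I medians were -0.37 over 11 members, 9 of them negative, and -0.17 over 17 interferon-induced members, 11 of them negative, against 0.02 over all genes. The abundant B2m (log2 -0.01, standard error 0.17) and H2-D1 (log2 0.02, standard error 0.11) had small differences. H2-K1 was 2775 to 3302 against 3309 to 3649, without overlap, and was not called (log2 -0.17, standard error 0.10, adjusted p 0.441).

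Of 14 other class I pathway genes 11 were lower in the Pitx1 knockout, where 4.28% of all genes were called and 52.3% were higher, and Pdia3, a chaperone of class I loading, fell (15704 against 21118, log2 -0.42, adjusted p 0.0269). The guanylate-binding protein gene Gbp3 was the 1 of 29 further interferon targets that fell (10.8 against 33.3, log2 -2.15, adjusted p 0.0205), and Ifnar1 rose (1568 against 1197, log2 0.39, adjusted p 0.0454). Summed levels of 7 fibroblast and endothelial markers were 341 to 647 in the Pitx1 knockout and 185 to 300 in the control line at day 8. Pdgfra rose among them (mean 256 against 67.5, log2 2.12, adjusted p 0.00981), while Lum and Dcn were at 0 in the knockout. Without 1 library the Ifnar1 call was kept in 5 of 22 fits (highest adjusted p 0.149), Pdia3 and Gbp3 in 18 each (0.114 and 0.0836) and Pdgfra in 20 (0.0533). With the compared groups alone none of these 4 was called (0.104 to 0.132). Leukocyte markers summed to 143 to 368 against 192 to 227. The part of these markers in the results above was not tested.

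In the Klf5 and Nfatc1 knockouts no member of either group was called against the control line, where 0.557% and 0.046% of all genes were. Rsad2, which makes an antiviral nucleotide, had the largest difference in both. It was 15, 9, 28 and 14 in the Klf5 knockout and 27, 37, 11 and 20 in the Nfatc1 knockout, against 3, 6, 0 and 7 in the control line (EPCAM+ replicates 1 and 2, then EPCAM-). Neither knockout overlaps the control range, with log2 differences of 2.07 (standard error 0.79, adjusted p 0.301) and 2.56 (standard error 0.79, adjusted p 0.292).

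Ifit1 was 39, 12, 52 and 42 in the Klf5 knockout, within reach of the control values given above (log2 1.22, standard error 0.87, adjusted p 0.607). Usp18, which removes Isg15 from proteins, was 51, 17, 13 and 20 in the Nfatc1 knockout and 6, 9, 12 and 3 in the control line, without overlap (log2 1.56, standard error 0.65, adjusted p 0.413). In the class I group Nlrc5 was 45, 30, 28 and 28 in the Klf5 knockout, above the control range of 3 to 26 (log2 1.60, standard error 0.78, adjusted p 0.429). Nlrc5 was 3, 7, 0 and 11 in the Nfatc1 knockout (log2 -1.30, standard error 0.78, adjusted p 0.566).

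Psmb9 was 18, 3, 18 and 5 in the Klf5 knockout and 0, 4, 13 and 14 in the Nfatc1 knockout, against 19, 9, 38 and 10 in the control line. Its log2 differences were -0.83 (standard error 0.70, adjusted p 0.671) and -1.59 (standard error 0.70, adjusted p 0.443), and the ranges overlap. Interferon-induced members had a median of 0.33 in the Klf5 knockout, with 11 of 17 positive, and 0.61 in the Nfatc1 knockout, with 15 of 17 positive. Over all genes the medians were -0.03 and -0.004, with 46.9% and 49.6% positive. Class I medians were -0.13 and -0.11. At an unadjusted p below 0.05 there were 2 and 4 of 17 interferon-induced and 1 and 3 of 11 class I members, beside 12.1% and 10.5% of all genes. Of the wider lists only Cd1d1 was called, and rose in the Klf5 knockout (148 against 62.0, log2 1.38, adjusted p 0.0444). That call was kept in 6 of 22 fits without 1 library (highest 0.260) and was lost with the compared groups alone (0.211).

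In the Creb3l1 knockout Ifih1 fell and no other member of either group was called, where 0.945% of all genes were. Ifih1 encodes the cytosolic sensor of long double-stranded RNA and lies at chr2:62595798-62646255 (GRCm38, minus strand). It was 8 and 0 in EPCAM+ and 11 and 3 in EPCAM- cells of the knockout, against 27 and 28, then 29 and 60, in the control line. The groups do not overlap, and the mean was 6.55-fold lower (5.50 against 36.0, log2 -2.94, standard error 0.61, adjusted p 0.0234, blocked 0.00315). That knockout mean lies below 3 reads per library (6.07 to 7.70 units in its libraries), so the size of the ratio is uncertain. The call was lost without control EPCAM+ replicate 1 or 2, control EPCAM- replicate 2 or replicate 2 of either Creb3l1 knockout group (highest adjusted p 0.108), and with the compared groups alone (0.193). Within the fractions it was not called in EPCAM+ (log2 -3.25, adjusted p 0.271) or EPCAM- cells (log2 -2.63, adjusted p 0.450).

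Ddx58, the related sensor, was near the control level in that knockout (mean 688 against 834, log2 -0.22, standard error 0.28, adjusted p 0.817). Ifit1 was 3, 0, 3 and 0 in the Creb3l1 knockout (log2 -2.83, standard error 0.87, adjusted p 0.170) and Nlrc5 5, 0, 0 and 3 (log2 -2.30, standard error 0.78, adjusted p 0.231), both reaching into the control range. Psmb9 was 20, 5, 13 and 10 (log2 -0.54, standard error 0.70, adjusted p 0.823). Medians were -0.02 for interferon-induced and 0.02 for class I members, against -0.01 over all genes. Ifitm3, which blocks virus entry, was the 1 further interferon target called and fell (422 against 733, log2 -0.80, adjusted p 0.00903).

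**Figure D3:**
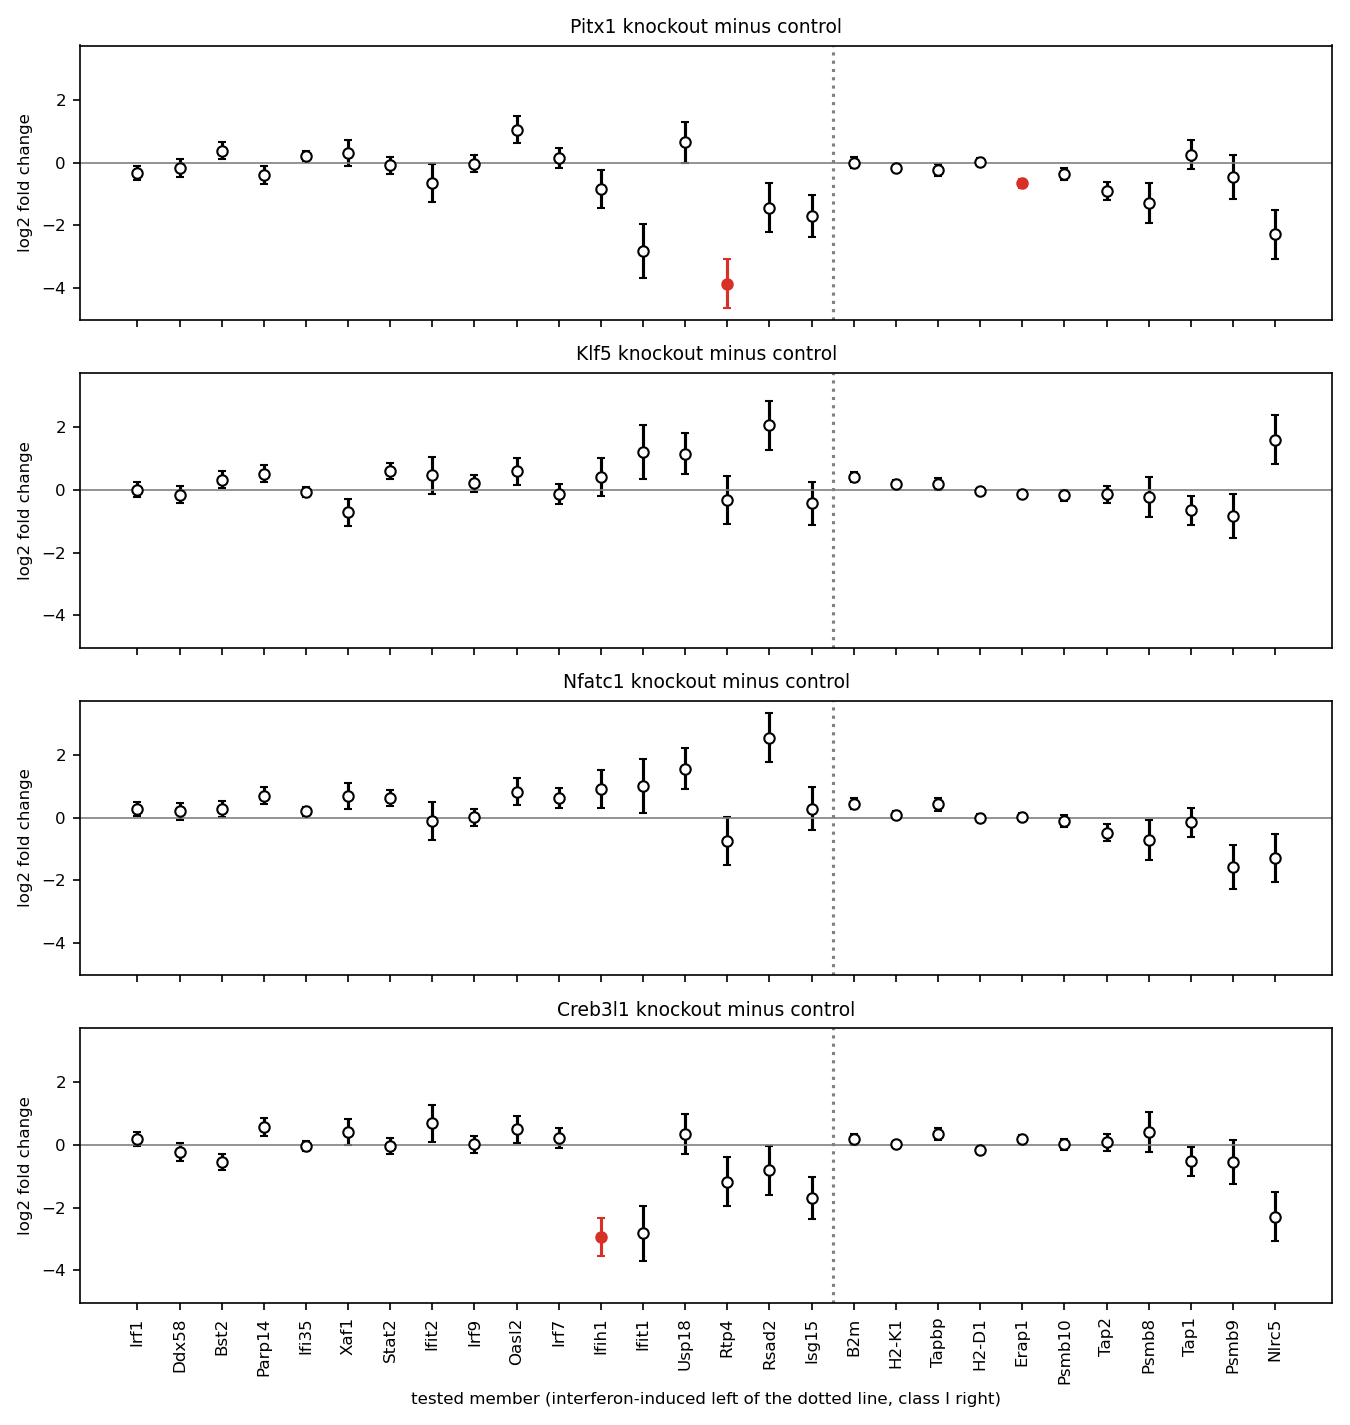
Log2 fold change of each knockout against the control line for the 28 tested members (mean of both fractions, bars are standard errors, red filled points are called). Called points are Rtp4 (-3.87, a fitted value against a group at 0) and Erap1 (-0.67) in the Pitx1 and Ifih1 (-2.94) in the Creb3l1 panel.

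Within single fractions the knockouts gave few calls over all genes: 0.0511% in EPCAM+ and 0.153% in EPCAM- cells for Klf5, 0.194% and 0.261% for Creb3l1, and 0% in both for Nfatc1. Over these and the Pitx1 comparisons within fractions, Erap1 in EPCAM- cells was the 1 call in 88 class I tests, and 0 of 136 interferon-induced tests were called. At an unadjusted p below 0.05 there were 9 class I and 14 interferon-induced tests, and 7.10% of tests over all genes. The block added Rtp4 among EPCAM- cells for Pitx1 (knockout 0 and 0, control 15 and 33, adjusted p 0.0628, blocked 0.0233), with 2.51% of all genes.

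Comparing the knockouts with one another leaves the shared control libraries out of the means, though the estimate of the spread still used all 22 libraries. Each line enters 3 of these 6 comparisons. Ifit1 was called higher in the Klf5 and Nfatc1 knockouts than in both the Pitx1 and Creb3l1 knockouts. Rsad2 was called in the same comparisons except Klf5 against Creb3l1, and Nlrc5 was called higher in the Klf5 than in the Pitx1 and Creb3l1 knockouts. Pitx1 against Klf5 called 3 interferon-induced and 2 class I members (3.28% of all genes), all lower in the Pitx1 knockout. Pitx1 against Nfatc1 called 4 and 1 (2.75%), again all lower. Against Creb3l1 the Pitx1 knockout had 0 and 1 (3.82%). Klf5 against Creb3l1 called 2 and 1 (1.35%) and Nfatc1 against Creb3l1 3 and 0 (1.17%), all lower in the Creb3l1 knockout, and Klf5 against Nfatc1 called none (0.0971%).

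Ifit1, at chr19:34640871-34650009 (GRCm38, plus strand), was 39, 12, 52 and 42 in the Klf5 and 15, 34, 13 and 83 in the Nfatc1 knockout. The Pitx1 and Creb3l1 knockouts held 2 reads each over 4 libraries (0 to 3 units). The lowest Klf5 or Nfatc1 library, at 12, lies above all of these. Per read in genes Ifit1 was 27.4-fold higher in the Klf5 than in the Pitx1 knockout (95% counting interval 7.23 to 231, adjusted p 0.0145) and 26.9-fold higher in the Nfatc1 than in the Pitx1 knockout (7.07 to 228, adjusted p 0.0243). Against the Creb3l1 knockout it was 29.8-fold higher in Klf5 (7.88 to 252, adjusted p 0.0263) and 29.3-fold in Nfatc1 (7.70 to 248, adjusted p 0.0411). The intervals cover counting error only. With voom on recovered reads the first held (0.0388) and the other 3 did not (0.0582 to 0.0852). With the compared groups alone both Nfatc1 calls were lost (0.0821 against Pitx1 and 0.121 against Creb3l1). The Klf5 against Pitx1 call was lost without replicate 1 of either Klf5 group, Pitx1 EPCAM- replicate 1 or Pitx1 EPCAM+ replicate 2 (highest 0.0828). Nfatc1 against Pitx1 was lost without either Nfatc1 EPCAM+ library, Nfatc1 EPCAM- replicate 2 or the same Pitx1 libraries (highest 0.117). Klf5 against Creb3l1 was lost without replicate 2 of either Creb3l1 group, either Klf5 EPCAM- library or Klf5 EPCAM+ replicate 1 (highest 0.138). Nfatc1 against Creb3l1 was lost without any Creb3l1 library, either Klf5 EPCAM- library, either Nfatc1 EPCAM+ library or Nfatc1 EPCAM- replicate 2 (highest 0.173).

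Rsad2, at chr12:26442746-26456452 (GRCm38, minus strand), has an ISRE-type match in its printed promoter. It had 1 read over the 4 Pitx1 knockout libraries (0, 0, 0 and 3) and 3 reads in the Creb3l1 knockout (5, 0, 0 and 3). Against the values of 9 to 28 in the Klf5 knockout the ratio to the Pitx1 knockout was 24.95 (95% counting interval 4.10 to 1023, adjusted p 0.0184). Against the values of 11 to 37 in the Nfatc1 knockout it was 34.8 (5.82 to 1415, adjusted p 0.00956). The Klf5 call was lost without replicate 1 of either Klf5 group, either Pitx1 EPCAM+ library or Pitx1 EPCAM- replicate 1 (highest 0.0955), and the Nfatc1 call without that last library (0.0584). Nfatc1 over Creb3l1 had a ratio of 12.6 (3.96 to 64.3, adjusted p 0.0476), which was lost without any library other than the control and Pitx1 knockout EPCAM- libraries and Creb3l1 EPCAM+ replicate 1 (highest 0.186). It was also lost without the filter (0.0501), with median-of-ratios scaling (0.0516) and with the compared groups alone (0.131). Klf5 against Creb3l1 was not called (adjusted p 0.0897, blocked 0.0494).

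Nlrc5, at chr8:94434356-94527272 (GRCm38, plus strand), stood apart in the Klf5 knockout, whose libraries at 28 to 45 lie above all others of the series (highest 26, control EPCAM-). The Pitx1 and Creb3l1 knockouts held 3 reads each. The ratio of Klf5 to Pitx1 was 16.3 (95% counting interval 5.28 to 81.7, adjusted p 0.00894) and held without any 1 library (highest 0.0499). Klf5 to Creb3l1 was 17.8 (5.75 to 89.0, adjusted p 0.0159) and was lost without either Klf5 EPCAM- library, Klf5 EPCAM+ replicate 1, Creb3l1 EPCAM- replicate 1 or Creb3l1 EPCAM+ replicate 2 (highest 0.0877). In Pitx1 against Klf5, 8 of 11 class I members were lower in the Pitx1 knockout and 3 were higher. Their median was -0.43, against 0.05 over all genes, where 55.8% were positive. An unadjusted p below 0.05 was reached by 6 of the 11, beside 16.4% of all genes. H2-K1 was 3673 to 4221 in the Klf5 and 2775 to 3302 in the Pitx1 knockout, without overlap (log2 -0.37 for Pitx1 minus Klf5, standard error 0.10, adjusted p 0.0603, blocked 0.0154). B2m (log2 -0.43, adjusted p 0.227) and Tapbp (log2 -0.43, adjusted p 0.290, blocked 0.0301) were also lower in Pitx1 and not called. H2-D1 (2304 to 2962 in Pitx1, 2262 to 2728 in Klf5, log2 0.06, adjusted p 0.841) and Tap1 (19 to 42 and 5 to 25, log2 0.89, adjusted p 0.358) had positive differences, with overlapping ranges. B2m was not called in any comparison.

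Ifih1 was higher in the Klf5 knockout (51, 34, 60 and 42) than in the Creb3l1 knockout, 8.50-fold (log2 3.36, standard error 0.61, adjusted p 0.00734), and in the Nfatc1 knockout (101, 57, 57 and 52), 12.1-fold (log2 3.84, standard error 0.61, adjusted p 0.00303). The Nfatc1 call held without any 1 library (highest 0.0246) and the Klf5 call was lost without Creb3l1 knockout EPCAM- replicate 2 (0.0521). With the compared groups alone neither was called (0.0808 and 0.0741). Both ratios rest on a Creb3l1 knockout mean below 3 reads per library, so their size is uncertain. In the Pitx1 knockout Ifih1 was 36, 12, 20 and 13, above all 4 Creb3l1 libraries (log2 2.09, adjusted p 0.0660, blocked 0.0147).

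Erap1 fell in the Pitx1 knockout against each of the other knockouts. It was 1351, 998, 1509 and 1321 in the Klf5, 1111, 1460, 1579 and 1622 in the Nfatc1 and 1734, 1255, 1913 and 1605 in the Creb3l1 knockout, none overlapping the Pitx1 values of 832 to 937. Ratios of means were 1.47 (log2 -0.54, adjusted p 0.0384), 1.63 (log2 -0.69, adjusted p 0.00956) and 1.84 (log2 -0.86, adjusted p 0.00160), each with a standard error of 0.14. The Nfatc1 and Creb3l1 calls held without any 1 library, and the Klf5 call was lost without any Pitx1 library, either Klf5 or Nfatc1 EPCAM- library or Klf5 EPCAM+ replicate 1 (highest 0.196), with voom (0.0506) and without the filter (0.0628). With the compared groups alone the Klf5 (0.0896) and Nfatc1 (0.0631) calls were lost.

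Rtp4, at 0 in the Pitx1 knockout, was 12, 3, 23 and 14 in the Klf5 and 8, 0, 16 and 36 in the Nfatc1 knockout, at least 1.67-fold higher (adjusted p 0.0159) and at least 1.93-fold higher (adjusted p 0.0385). Both were lost with voom (0.0576 and 0.0910), and the Nfatc1 call with pseudocount 8 (0.0595) and the compared groups alone (0.174). The first was lost without replicate 1 of either Klf5 or either Pitx1 group (highest 0.0911). The other was lost without any Pitx1 library, either Klf5 or Nfatc1 EPCAM- library, Nfatc1 EPCAM+ replicate 1 or day 0 replicate 2 (highest 0.181). In the Creb3l1 knockout it was 8, 0, 21 and 8 and was not called against Pitx1 (adjusted p 0.0623, blocked 0.0286). Parp14, the ADP-ribosyltransferase, was 209, 113, 203 and 180 in the Pitx1 and 379, 324, 389 and 383 in the Nfatc1 knockout, a ratio of 2.09 without overlap (log2 -1.10, standard error 0.28, adjusted p 0.0441). That call was lost without any library other than the Klf5 knockout libraries, Pitx1 EPCAM+ replicate 1, both Creb3l1 EPCAM+ libraries and Creb3l1 EPCAM- replicate 2 (highest 0.148), with voom (0.0545) and with the compared groups alone (0.0658).

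With the block more genes were called between knockouts, among all genes as among members. The share of all genes became 6.62% for Pitx1 against Klf5, 6.32% against Nfatc1 and 7.88% against Creb3l1, 0.291% for Klf5 against Nfatc1, 3.33% for Klf5 against Creb3l1 and 3.55% for Nfatc1 against Creb3l1. Pitx1 against Creb3l1 gained Irf1, Ifit2, Ifih1, Rtp4 and Parp14, with Bst2 among those higher in Pitx1 (372 against 188, log2 0.92, adjusted p 0.0648, blocked 0.00462), and Psmb8, Tap2 (62.5 against 129, log2 -0.998, adjusted p 0.0582, blocked 0.0143) and Tapbp (log2 -0.59, adjusted p 0.126, blocked 0.00396) in the class I group. Pitx1 against Klf5 gained Ifit2, Xaf1, Parp14, Tapbp and H2-K1, and Pitx1 against Nfatc1 gained Irf1, Ifih1 and Tapbp. Bst2 was lower in the Creb3l1 knockout (168 to 214) than in the Klf5 (240 to 490) and Nfatc1 (277 to 405) knockouts, called in both with the block (0.0132 and 0.0212) and in neither without it (0.138 and 0.168). Xaf1 was lower in the Klf5 than in the Nfatc1 knockout (log2 -1.40, adjusted p 0.540, blocked 0.0102) and the Creb3l1 knockout (log2 -1.13, adjusted p 0.260, blocked 0.0123).

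**Figure D4:**
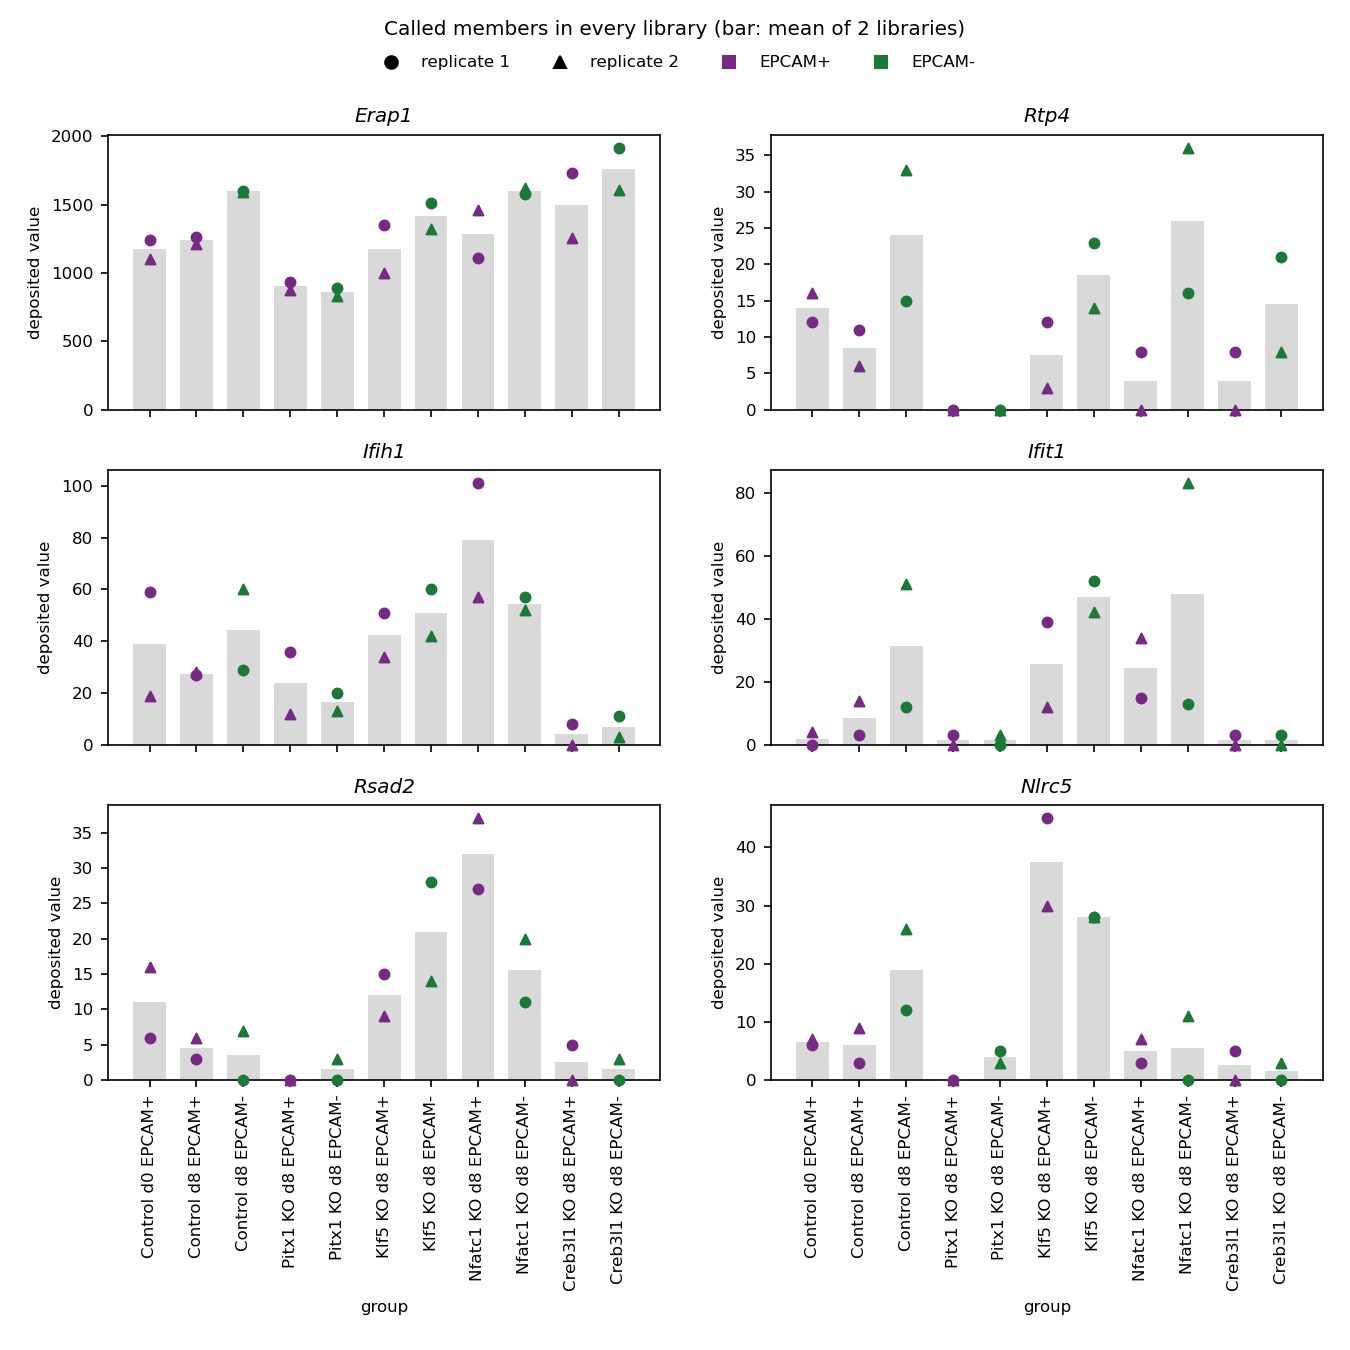
Deposited values of 6 called members in each library by group (grey bars are means of 2 libraries, circles and triangles replicates 1 and 2, purple EPCAM+ and green EPCAM-). Erap1 is lowest and Rtp4 is 0 in the Pitx1 knockout, Ifih1 is lowest in the Creb3l1 knockout, and Ifit1 and Rsad2 are higher in the Klf5 and Nfatc1 than in the Pitx1 and Creb3l1 knockouts.

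A test of any difference among the 11 groups called Ifit1 (adjusted p 0.0395), Ifih1 (0.0334) and Rtp4 (0.0430) of 17 interferon-induced members and Erap1 (0.0224) of 11 class I members, where 5.41% of all genes were called. With the block this rose to 8 and 4, and the share of all genes to 12.6%. The Ifit1 and Rtp4 calls were lost with voom (0.118 and 0.0757), and Rtp4 with pseudocount 8 (0.0534) and quantile normalization (0.0548). The Erap1 call was lost without any Pitx1 library or Creb3l1 EPCAM- replicate 1 (highest 0.0699). The Rtp4 call held only without an EPCAM+ library of the Klf5, Nfatc1 or Creb3l1 knockout (highest 0.103). The Ifih1 call was lost without any EPCAM- library of the Pitx1, Klf5 or Nfatc1 knockout, EPCAM+ replicate 1 of the Klf5 or Nfatc1 knockout or replicate 2 of either Creb3l1 group (highest 0.0639). The Ifit1 call was lost without day 0 replicate 1, control EPCAM- replicate 2, replicate 2 of either Creb3l1 group, Pitx1 EPCAM+ replicate 2 or EPCAM- replicate 1, Klf5 EPCAM+ replicate 1 or either Klf5 EPCAM- library, either Nfatc1 EPCAM+ library or Nfatc1 EPCAM- replicate 2 (highest 0.0914).

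Between day 0 and day 8 in control EPCAM+ cells no member was called, nor was any other gene (0%), while 831 of 19569 genes had an unadjusted p below 0.05. That level was also reached by 2 of 17 interferon-induced and 0 of 11 class I members. The 2 largest differences in each group were in low genes. Tap1 was 54 and 34 at day 0 and 27 and 11 at day 8 (log2 -1.26, standard error 0.65, adjusted p 1), and Psmb9 26 and 16, then 19 and 9 (log2 -0.60, standard error 0.98, adjusted p 1). Ifit1 was 0 and 4 at day 0 and 3 and 14 at day 8 (log2 1.79, standard error 1.23, adjusted p 1), and Usp18 31 and 10, then 6 and 9 (log2 -1.17, standard error 0.92, adjusted p 1). Stat2, at a higher level, was 211 and 205 at day 0 and 110 and 93 at day 8. The Tap1, Usp18 and Stat2 groups do not overlap, nor do those of some other members. The share of all genes without overlap between 2 and 2 libraries was not counted. At day 8 14 of 17 interferon-induced members were lower (median -0.28) and 9 of 11 class I members (median -0.24). Over all genes the median was 0, and 49.3% were positive.

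Members differed between replicate 1 and replicate 2, numbers that match the batch tag of the labels. Irf1, Ddx58 and Xaf1 were higher in replicate 1 in 11 of 11 groups, and Ifit2 was higher in replicate 2 in 11 of 11. Over all genes tested 2.85% were higher in replicate 1 in all 11 groups and 2.77% in replicate 2. The median difference, replicate 1 minus replicate 2, was 0.54 for Irf1, 0.56 for Ddx58, 0.72 for Xaf1 and -1.18 for Ifit2 on the log2 scale. In the class I group 7 of 11 members were higher in replicate 1 in at least 9 of 11 groups, against 12.5% of all genes, and Psmb8, Tap1, Tapbp and H2-D1 in 10. Reads in genes were 6723621 to 8358609 in replicate 1 and 6054929 to 9882700 in replicate 2. What the batch tag stands for is not given in the labels.

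**Figure D5:**
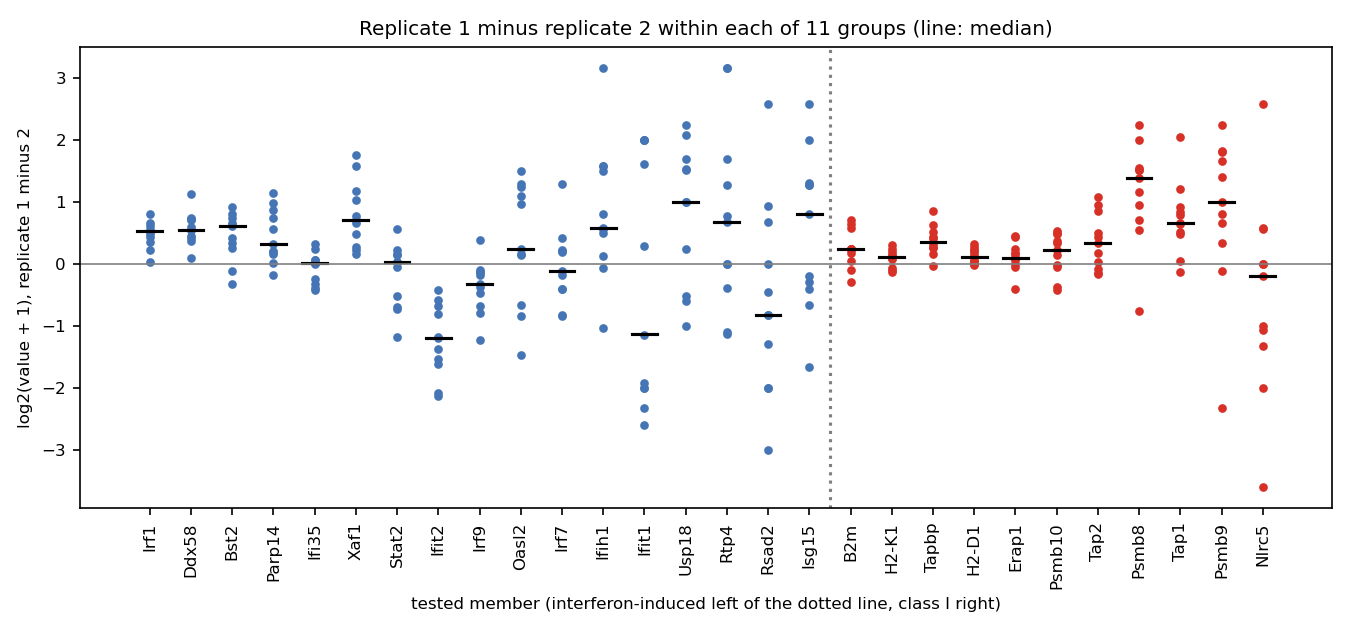
Difference in log2(value + 1) between replicates 1 and 2 in each of the 11 groups (points; blue interferon-induced, red class I) with its median (line). Irf1, Ddx58 and Xaf1 lie above 0 in all groups and Ifit2 below 0 in all.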

How the data were processed

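RNA from sorted tumour cells was made into Ovation Solo libraries and sequenced in pairs on a NovaSeq, per the labels' protocols. STAR, HTSeq, FastQC, Picard and Trimmomatic are listed, with GRCm38 and mm10, per the submitters' processing notes; versions, roles and whether counting used strand are not given in the sources used here. The deposited values were treated as a score: normalised counts by the authors, in which 99.8 to 99.9% of values above 0 fell on whole multiples of a library's step, rounded up, taken as 1 read. They were not scaled again. The members and gene lists were chosen with earlier results of these data known. A further allele given by the labels is not reported here.

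A gene was tested if 2 or more libraries held 10 or more (19569 genes), with limma 3.58.1 in R 4.3.3 on log2(value + 1). For a low gene the fitted log2 difference therefore depends on the added 1 and can differ from the ratio of means. There was 1 mean per group over all 22 libraries, with a trend and robust prior and 11 residual degrees of freedom. Benjamini-Hochberg adjustment was made separately for 29 comparisons and an F test, and a gene was called below 0.05. Full statistics are given for members called in any comparison and for the 2 of each group with the largest change in the fraction, knockout and time comparisons; other genes are named by their calls, their level or the block.

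Replicate numbers match the batch tag of the labels and so pair the samples. Replicate differences correlated across genes at -0.13 to 0.38 between groups (median 0.15, over 0.1 in 36 of 55 pairs of groups). Between the 2 fractions of one line they correlated at 0.17 to 0.38, and no fit had a term for that pairing. A second fit had the replicate number as a block, printed as the blocked value. Alternatives were pseudocount 8, no filter, a mean of at least 50, median-of-ratios scaling, quantile normalization, voom on recovered reads (1268 genes called between the fractions against 1218), the compared groups alone and leaving out each library. Identifiers matched GENCODE M21 for 99.3% of rows. The fit was tested on simulated data, with changes planted only in genes with a mean of at least 50 and with no replicate effect. Changes in members below that level were not covered. Python 3.11.15 with pandas 2.3.3 and matplotlib 3.10.9 drew the rest. Counting intervals are exact (Clopper-Pearson) at 95%.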

Additional observations from a re-analysis of the deposited data

Results flagged for a closer look

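Nlrc5 was the 1 tested member whose fractions did not overlap in the control line or a knockout and lay in opposite order in them. Each group holds 2 libraries, and the share of all genes that meet this rule was not counted, so the pattern is not shown to be particular to Nlrc5. In control cells Nlrc5 was higher in EPCAM- (12 and 26) than in EPCAM+ (3 and 9). In the Klf5 knockout it was lower in EPCAM- (28 and 28) than in EPCAM+ (45 and 30). The Klf5 effect minus the control effect was -1.95 on the log2 scale and was not called (adjusted p 1, limma). By pairs with the same replicate number a second rule was used. The share of all genes that meet it was not counted, so a count of members is not a result about them. Under this second rule, 8 members moved one way in both control pairs and the other way in both pairs of a knockout. They were Irf7, Tap1, Tapbp and Erap1 in the Pitx1, H2-D1 and Nlrc5 in the Klf5, Ifih1 in the Nfatc1 and Irf9 in the Creb3l1 knockout, and the difference was not called in any of them (adjusted p 1, limma).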

How the results depend on the processing

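Counts below are of members called, given as interferon-induced or class I. With the replicate block, the fraction comparison called 4 and 2, Pitx1 against control 2 and 2, Pitx1 against Klf5 6 and 4, Pitx1 against Creb3l1 6 and 4, and the test over 11 groups 8 and 4; Pitx1 against Nfatc1 called 2 class I members, and interferon-induced counts were 1 for Klf5 against Nfatc1, 5 for Klf5 against Creb3l1, and 1 each for the fractions within the Pitx1 knockout and for Pitx1 against control in EPCAM- cells. The share of all genes called also rose with the block, to 10.1% between the fractions, 8.77% in Pitx1 against control and 12.6% over 11 groups. The stricter filter leaves out the low genes: interferon-induced calls fell to 0 in Pitx1 and Creb3l1 against control, Pitx1 against Klf5, Klf5 and Nfatc1 against Creb3l1 and the test over 11 groups, and to 1 in Pitx1 against Nfatc1, while class I counts were 0 in Klf5 against Creb3l1 and 2 in Pitx1 against Creb3l1. In a fit of the compared groups alone, interferon-induced counts were 1 for the fractions, Pitx1 against Nfatc1, Pitx1 against Creb3l1 and Klf5 against Creb3l1 and 0 for Creb3l1 against control and Nfatc1 against Creb3l1; class I counts were 1 for Pitx1 against Klf5 and 0 for Pitx1 against Nfatc1 and Pitx1 against control in EPCAM- cells. Pseudocount 8 called 1 interferon-induced member between the fractions, 1 class I member in Klf5 against Nfatc1 and 2 over 11 groups. Without a filter class I counts were 0 between the fractions, 1 in Pitx1 against Klf5 and 2 over 11 groups, and with median-of-ratios scaling 0 between the fractions. Quantile normalization called 2 interferon-induced and 2 class I members in Pitx1 against Creb3l1 and 2 class I over 11 groups. Voom called 1 interferon-induced member in Pitx1 against Nfatc1 and in Klf5 against Creb3l1, 1 class I member in Pitx1 against Klf5 and 2 over 11 groups. Apart from the stricter filter, the cause was not tested.

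Leaving out 1 library gave 0 to 1 interferon-induced and 0 to 2 class I calls between the fractions, 0 to 4 and 1 to 3 in Pitx1 against Klf5, 0 to 4 and 1 to 2 in Pitx1 against Nfatc1, 0 to 2 and 1 to 3 in Pitx1 against Creb3l1, 0 to 2 and 0 to 1 in Klf5 against Creb3l1, 0 to 1 and 0 to 1 in Pitx1 against control in EPCAM- cells, and 0 to 4 and 0 to 2 over 11 groups. Interferon-induced calls were 0 to 1 in Creb3l1 against control, also within EPCAM+ cells, and 1 to 3 in Nfatc1 against Creb3l1. No named gene reversed its direction past the threshold under any alternative run. Members at a few reads per library limit the knockout comparisons.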
